A study of Homo sapiens with 12 samples.

Results

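The genes described here are 38 genes of the melanocyte lineage and of the melanosome, the organelle in which pigment is made. They were taken from a list of gene names and grouped by role into 5 transcription regulators, 6 pigment enzymes and matrix proteins, 6 channels, transporters and melanosome receptors, 5 genes of melanosome transport, 9 genes of organelle biogenesis, 3 surface receptors and 4 other lineage markers. All 38 were present by name in both count tables, which share 38997 features. Poly(A) RNA was sequenced from the uveal melanoma cell lines 92.1 and MP38 in 4 groups of 3 libraries: 92.1 in VE-822, 92.1 in DMSO, MP38 in VE-822 and MP38 in DMSO. VE-822 (berzosertib) inhibits the kinase ATR, which responds to stalled replication forks, and DMSO is its solvent. Exposure lasted 72 hours in every group, and cells were lysed directly after it. In each line the concentration of VE-822, whose value is not given in the sources used here, was set to leave about 40% of cells viable. Dose and line therefore cannot be told apart, and each line stands for itself alone. Nothing in the labels tells if replicate libraries are separate cultures or one culture sequenced 3 times, so the p-values may measure technical spread only. The comparisons ask how the pigment programme differs between the lines in DMSO, how it stands after VE-822 in each line, and whether the responses of the lines differ.

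Melanin is made in melanosomes, organelles related to lysosomes, from the amino acid tyrosine. MITF, a basic helix-loop-helix leucine zipper factor, is a main activator of the pigment genes and binds short DNA motifs that include CATGTG and CACGTG, while SOX10 and PAX3 act on the MITF gene itself. Tyrosinase (TYR) carries out the rate-limiting step, TYRP1 and DCT act after it, and PMEL forms the fibrils on which melanin is laid down. Finished melanosomes are held to actin by RAB27A, melanophilin (MLPH) and myosin Va (MYO5A). Uveal melanoma arises from melanocytes of the eye, which keep much of this programme.

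The 3 enzymes of melanin synthesis belong to 1 protein family and gave different results in these libraries, and TRPM1 and MLANA were among the genes with the largest increases in VE-822 in MP38. Their promoters are therefore shown as RefSeq gives them on GRCh38.p14, each 300 bases from 250 bases before to 50 bases after an annotated start, 5′ to 3′ on the strand of the gene. Capitals mark CATGTG or its reverse complement CACATG. TYR lies on the plus strand (chr11:89177625-89177924), TYRP1 on the plus strand (chr9:12693135-12693434), DCT on the minus strand (chr13:94479633-94479932), TRPM1 on the minus strand (chr15:31161111-31161410) and MLANA on the plus strand (chr9:5890639-5890938).
TYR: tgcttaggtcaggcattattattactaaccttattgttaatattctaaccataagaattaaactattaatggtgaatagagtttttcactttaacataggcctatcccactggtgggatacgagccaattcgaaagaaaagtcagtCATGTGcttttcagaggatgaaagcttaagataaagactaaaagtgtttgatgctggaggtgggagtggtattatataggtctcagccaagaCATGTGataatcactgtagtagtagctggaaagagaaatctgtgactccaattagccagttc
TYRP1: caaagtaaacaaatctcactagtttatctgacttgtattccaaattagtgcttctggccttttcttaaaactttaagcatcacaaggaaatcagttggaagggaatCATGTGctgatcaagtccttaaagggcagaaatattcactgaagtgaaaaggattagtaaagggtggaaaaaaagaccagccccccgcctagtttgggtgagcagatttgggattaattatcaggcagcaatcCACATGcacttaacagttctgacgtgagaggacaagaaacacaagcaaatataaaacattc
DCT: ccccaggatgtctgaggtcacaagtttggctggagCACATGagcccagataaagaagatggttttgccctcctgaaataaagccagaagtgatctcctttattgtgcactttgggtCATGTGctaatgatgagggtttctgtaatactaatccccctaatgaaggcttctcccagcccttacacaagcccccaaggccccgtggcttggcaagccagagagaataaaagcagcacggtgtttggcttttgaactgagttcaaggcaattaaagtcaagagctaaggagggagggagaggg
TRPM1: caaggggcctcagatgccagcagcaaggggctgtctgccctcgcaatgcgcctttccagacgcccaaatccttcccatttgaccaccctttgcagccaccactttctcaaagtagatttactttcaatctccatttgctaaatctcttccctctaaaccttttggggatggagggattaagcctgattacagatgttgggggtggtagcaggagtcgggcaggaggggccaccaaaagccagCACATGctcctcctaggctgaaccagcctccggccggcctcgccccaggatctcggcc
MLANA: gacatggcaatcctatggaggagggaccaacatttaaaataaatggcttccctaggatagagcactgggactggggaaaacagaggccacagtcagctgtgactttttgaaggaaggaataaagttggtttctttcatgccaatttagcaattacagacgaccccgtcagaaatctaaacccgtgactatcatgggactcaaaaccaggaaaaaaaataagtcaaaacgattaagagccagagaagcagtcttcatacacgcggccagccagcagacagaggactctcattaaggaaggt
CATGTG began 104 and 12 bases before the start of TYR and 144 bases before that of TYRP1, where CACATG also stood 11 bases before the start. At the starts shown, DCT had CACATG 215 and CATGTG 134 bases before, TRPM1 had CACATG 8 bases before, and the MLANA window held neither. DCT and TRPM1 each have another start in RefSeq, not shown, with no match for DCT and with CACATG 56 bases before for TRPM1. RefSeq windows were at hand for 30 of the 38 genes, 54 windows in all, since a gene can have several starts. The motif in either orientation was found in 17 of these 54 windows (31.5%) and in 3897 of 35116 windows of all genes (11.1%). Windows of 1 gene can overlap, and those of LYST and of HPS4 hold the same match. Counted once per gene, the motif was in a window of 14 of 30 genes (46.7%) and of 3651 of all 27305 genes (13.4%). The longer form TCATGTG or CACATGA, which is part of the same matches, was in 6 of the 54 windows (11.1%) and in 2.92% of all windows. CACGTG, its own reverse complement, was in 5 of the 54 windows (9.26%) and in 7.26% of all. A match is a run of letters, and MITF binding was not measured.

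Library totals were 113370680 to 137664800 counts in 92.1 VE-822, 112374503 to 123705501 in 92.1 DMSO, 54415628 to 60891725 in MP38 VE-822 and 61045071 to 63638976 in MP38 DMSO, so a low gene is measured less precisely in MP38. Line and sequencing depth go together and cannot be told apart. DMSO library 3 of 92.1 stood apart: its counts differed from those of DMSO libraries 1 and 2 by a chi-square per gene of 93.8 and 94.5, against 2.39 to 8.39 for all other pairs of replicates. Among the 36 genes with at least 1 CPM (counts scaled to a common library size) in those libraries, 6 differed by over 1.2 times from the mean of the other 2, with ratios from 0.756 for SOX10 to 1.83 for ABCB5. Levels below are CPM scaled over all 12 libraries, and log2 fold changes carry their standard error (SE) after ±. Leaving it out added 14 calls in 92.1. Those of SOX10, TFAP2A, PMEL, SLC45A2, SLC24A5, EDNRB, ABCB5 and QPCT are given with these genes. The others were lower levels in VE-822 of GPR143 (-0.16), RAB38 (-0.088), HPS6 (-0.18), BLOC1S1 (-0.29) and CAPN3 (-0.18) and a higher one of LYST (0.17), with adjusted p from 9.85e-05 to 0.0334 in edgeR. It also added the line difference of HPS3 (0.15) and the response difference of MLPH (-0.24), and ended that of TYR. Of 5 melanocytic markers, MP38 had all at 1 FPKM or more, while 92.1 had 4 and lacked S100B. The retinal pigment epithelium marker RPE65 was listed at 0 in every 92.1 DMSO library and had at most a mean of 0.049 FPKM elsewhere, although the 6 markers of that tissue summed to 46.5 to 51.6 FPKM in MP38 VE-822, 52.5 to 55.9 in MP38 DMSO, and at most 8.79 in any 92.1 library, with BEST1 the highest. Fibroblast and endothelial markers each summed to at most 1.16 FPKM in any library, with DCN among those listed at 0 in 92.1 DMSO. Epithelial markers summed to at most 0.930 FPKM in 92.1, to 14.9 to 15.7 in MP38 VE-822 and to 16.1 to 19.8 in MP38 DMSO, mostly KRT18. The part of these other markers in the results was not tested. In bulk RNA, fewer cells of a type and less RNA per cell cannot be told apart.

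Between the lines in DMSO, 92.1 carried the larger share of pigment transcripts but with a different mix of enzymes. Most of the gap lay in the enzyme and matrix genes, led by TYRP1 and PMEL in 92.1. They took a mean of 1.88% of counts in 92.1 DMSO and 0.409% in MP38 DMSO. Transport genes took 0.0722% and 0.0446%, and biogenesis genes 0.0904% and 0.0789%. Other lineage markers took more in MP38, with 0.0075% in 92.1 DMSO and 0.0256% in MP38 DMSO. The 38 genes took 2.48 to 2.53% of all counts in 92.1 VE-822, 2.26 to 2.29% in 92.1 DMSO, 0.788 to 0.826% in MP38 VE-822 and 0.666 to 0.690% in MP38 DMSO. In 92.1 DMSO against MP38 DMSO, 24 of 37 genes tested were higher and 11 lower at an adjusted p under 0.05 (edgeR quasi-likelihood F test, Benjamini-Hochberg adjustment over all genes), and 2 were not called. Of all 24958 genes tested, 79.7% were called (38.5% higher, 41.2% lower), so a call alone says little here. At a log2 difference of at least 0.5, 28 of the 37 were called, against 67.1% of all genes, and at a difference of at least 1, 24 were called, against 49.6%. Their median log2 fold change was 0.74, beside -0.05 for all genes tested. Scaling by library size alone moved the all-gene median to -0.27 and gave 19 higher and 13 lower. TYRP1, TRPM1, OCA2, SLC24A5, PAX3, TFAP2A, CITED1 and EDNRB were far higher in 92.1, and S100B, DCT, TYR, MC1R, QPCT and RAB27A were higher in MP38.

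VE-822 was followed in MP38 by higher levels of most pigment and transport genes, with lower levels of EDNRB, DCT, MITF and SOX10. The largest fall was that of EDNRB (log2 fold change -0.76), while MITF and SOX10 each changed by -0.26. Of 36 genes tested there, 20 rose in VE-822 and 10 fell. Over all 21415 genes tested 52.3% were called, 26.9% higher and 25.4% lower. Changes of at least 0.5 on the log2 scale were called for 15 of the 36, against 20.5% of all genes, and 4 reached 1, against 7.01%. The median log2 fold change was 0.37, beside -0.01 for all genes tested. All 5 transport genes rose, as did 4 of 6 pigment enzyme and matrix genes.

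In 92.1 VE-822, at the concentration set for that line, was followed by mixed changes with a median nearer 0, the largest being a fall of DCT and, at a very low level, a rise of S100B. Of 37 genes tested, 7 were higher in VE-822 and 8 lower, where 39.9% of all 22943 genes tested were called (20.3% higher, 19.6% lower). Only 3 were called at a log2 change of at least 0.5, against 21.6% of all genes. The median was 0.06, beside 0.03 for all genes. Without DMSO library 3 the counts were 13 higher and 16 lower, with 55.7% of all genes called, and all 15 calls remained. Without VE-822 library 2 they were 6 and 3. Scaling by library size alone gave 16 higher and 5 lower, with 12 of the 15 calls kept, and over all genes 5684 higher and 3534 lower, beside 4658 and 4498.

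The difference between the responses was tested directly, as the response of 92.1 minus that of MP38. It was below 0 for 22 of 37 genes, above 0 for 8 and not called for 7, where 40.9% of all genes were called (18.8% below, 22.1% above). At a size of at least 0.5, 20 of the 37 were called, against 27.5% of all. The median was -0.41, beside 0.11 for all genes. Of the genes here, 3 were called higher in both lines (GPNMB, MLANA and MLPH) and 2 lower in both (DCT and MITF). PAX3, RAB27A, HPS3 and HPS4 were called higher in MP38 and lower in 92.1, and HPS5, MC1R and S100B lower in MP38 and higher in 92.1. The share of all genes called alike or in opposite directions was not computed, so these counts cannot be set against it. They also depend on the calls in 92.1, which changed with the settings. The 2 responses and their difference use the same libraries and are not independent of each other.

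**Figure D1:**
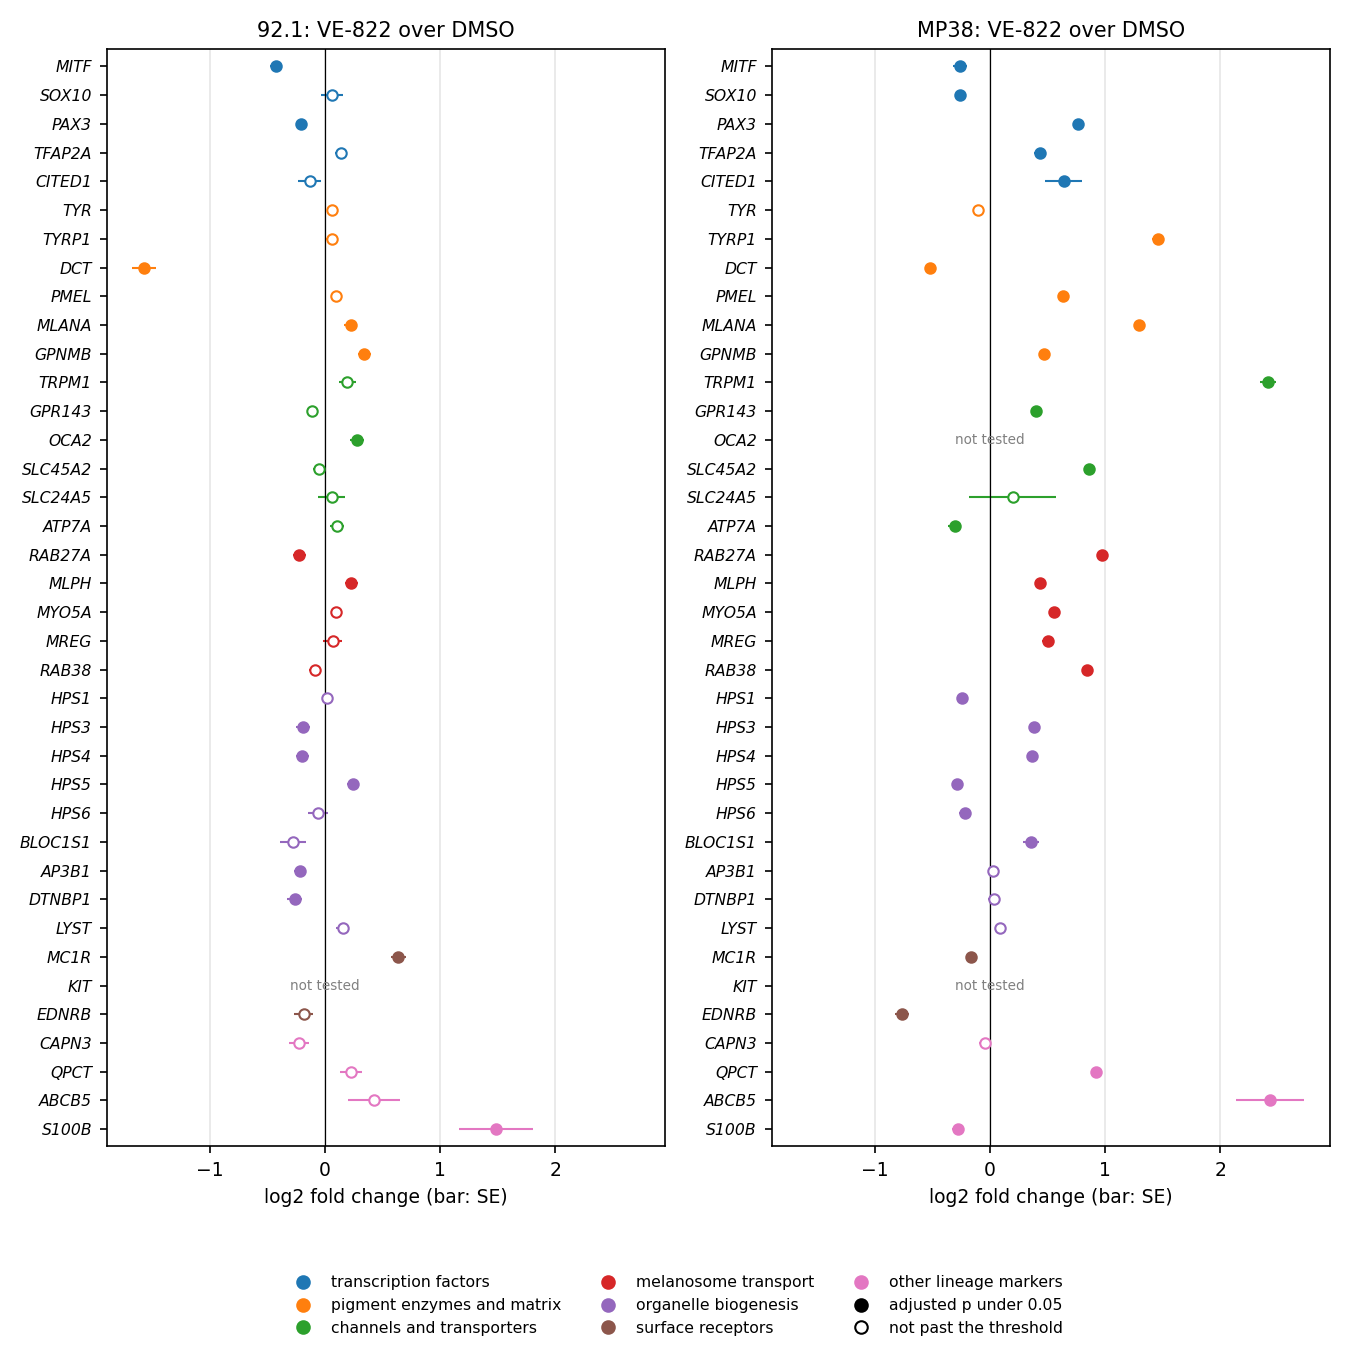
Log2 fold change of VE-822 over DMSO for each gene, in 92.1 and in MP38, with genes grouped by role; filled points passed an adjusted p of 0.05 and bars are SE. The MP38 points reach 2.42 for TRPM1 and 2.43 for ABCB5, while most 92.1 points lie near 0 apart from DCT at -1.57 and S100B at 1.49.

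Among the transcription regulators, MITF was higher in 92.1 than in MP38 and lower in VE-822 in both lines. MITF (ENSG00000187098.17, chromosome 3, 69739464 to 69968336 in the annotation of the deposited tables) had 382, 370.0 and 344 CPM in 92.1 VE-822, 489, 473 and 469.5 in 92.1 DMSO, 145, 145 and 117 in MP38 VE-822 and 157, 154 and 174 in MP38 DMSO. No VE-822 library overlapped its DMSO libraries in either line. Its log2 fold change in VE-822 was -0.26 ± 0.06 (adjusted p = 0.00125) in MP38 and -0.42 ± 0.05 (adjusted p = 0.000314) in 92.1, and the difference of -0.13 between the responses was not called (adjusted p = 0.336). In MP38 the change was -0.17 without VE-822 library 3, and the difference was then called, at -0.28 (adjusted p = 0.014). MITF was also no longer called in MP38 when log2 FPKM was tested with limma, with adjusted p from 0.0564 to 0.12, or with robust dispersions (0.0671). In DMSO it was 2.95-fold higher in 92.1 (log2 1.56 ± 0.08).

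SOX10, the neural crest factor that acts on MITF, was the only transcription regulator higher in MP38. It measured 446, 441 and 433 CPM in 92.1 VE-822, 444, 451 and 338 in 92.1 DMSO, 483, 502 and 516 in MP38 VE-822 and 587, 602 and 603 in MP38 DMSO. In MP38 all VE-822 libraries lay below all DMSO libraries, and the log2 fold change was -0.26 ± 0.04 (adjusted p = 9.17e-06). In 92.1 the groups overlapped, with DMSO library 3 far below the other 2 DMSO libraries, and the change of 0.06 ± 0.10 was not called (adjusted p = 0.662). Without that library it was -0.091 and called as lower (adjusted p = 0.0104), and the difference between responses was 0.19 (adjusted p = 0.00376). With all libraries the difference was 0.35 ± 0.11 (adjusted p = 0.0181), a call that was lost without any 1 of the 3 92.1 VE-822 libraries, MP38 VE-822 libraries 1 or 2 or MP38 DMSO libraries 2 or 3 (adjusted p from 0.0525 to 0.067) and in DESeq2 (0.0627). In DMSO the log2 difference between 92.1 and MP38 was -0.54 ± 0.08.

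PAX3, a paired-box factor of the melanocyte lineage, moved in opposite directions. It had 248, 245 and 241 CPM in 92.1 VE-822, 265, 271 and 289 in 92.1 DMSO, 52.6, 53.7 and 53.3 in MP38 VE-822 and 30.8, 32.2 and 30.1 in MP38 DMSO. It rose in MP38 (log2 fold change 0.77 ± 0.04, adjusted p = 3.92e-12) and fell in 92.1 (log2 fold change -0.21 ± 0.05, adjusted p = 0.0105), and the responses differed by -0.94 ± 0.06 (adjusted p = 1.22e-08). The fall in 92.1 was lost when only genes averaging 5 CPM or more were tested (-0.11, adjusted p = 0.107), with unfiltered log2(FPKM + 1) (-0.13, adjusted p = 0.0765) and without VE-822 library 2, where the adjusted p was 0.05.

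TFAP2A, a neural crest factor that acts with MITF at pigment genes, rose in MP38 and was 10.3-fold higher in 92.1 than in MP38 in DMSO. Its levels were 584, 575 and 565 CPM in 92.1 VE-822, 492, 498 and 539 in 92.1 DMSO, 70, 66.8 and 65.6 in MP38 VE-822 and 48.7, 46.3 and 54.1 in MP38 DMSO. The groups did not overlap in either line, although in 92.1 the change of 0.13 ± 0.05 was not called (adjusted p = 0.0706). Without DMSO library 3 it was called (0.15, adjusted p = 0.000214). Scaling by library size alone also called it higher (0.20, adjusted p = 0.00995). So did a test of genes averaging 5 CPM or more (0.22, adjusted p = 0.0144). On log2 FPKM scales limma called it too, with adjusted p from 0.0138 to 0.0273. In MP38 the change was 0.43 ± 0.05 (adjusted p = 2.45e-07). The responses differed by -0.27 ± 0.08 (adjusted p = 0.0135), a call lost with scaling by library size alone (-0.19, adjusted p = 0.0675), among genes averaging 5 CPM or more (-0.15, adjusted p = 0.147) and on log2 FPKM scales. CITED1, a transcriptional co-regulator, had 17.8, 16.3 and 14.5 CPM in 92.1 VE-822, 17.3, 15.5 and 19.2 in 92.1 DMSO, 1.77, 1.84 and 2.09 in MP38 VE-822 and 1.35, 1.27 and 1.02 in MP38 DMSO, and rose in MP38 (log2 fold change 0.64 ± 0.16, adjusted p = 0.0018), with a difference between responses of -0.75 ± 0.18 (adjusted p = 0.00288). Of its exonic bases 38.6% are shared with AL133500.1 on the same strand, and 11.4% of those of TFAP2A with an antisense RNA. Both values are uncertain. For TFAP2A the sources do not tell if reads were counted by strand, and for CITED1 a strand setting would not separate the overlapping genes.

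**Figure D2:**
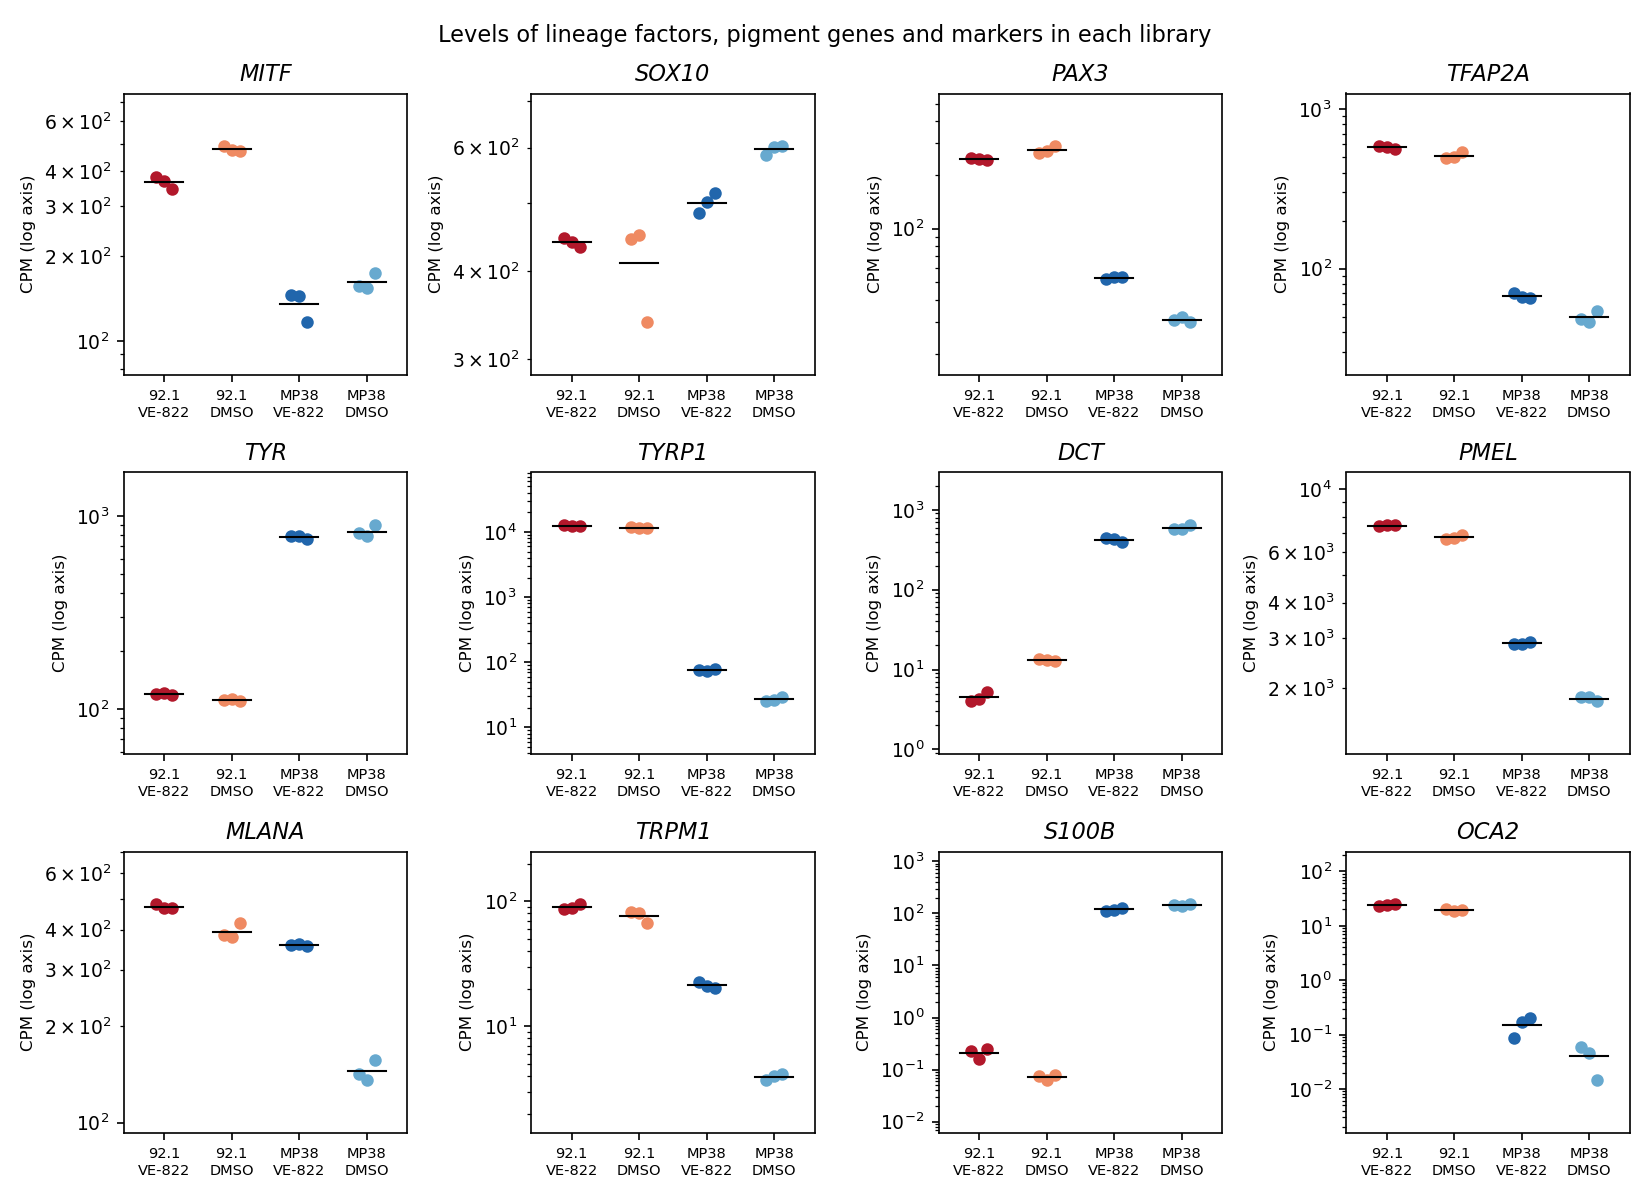
CPM of chosen genes in each library on a log axis, by group, with 92.1 VE-822, 92.1 DMSO, MP38 VE-822 and MP38 DMSO from left to right in each panel. TYRP1 lies between 11664 and 12701 CPM in the 92.1 libraries and at or below 78.0 CPM in the MP38 libraries, while DCT has the opposite order.

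The enzymes of melanin synthesis were ordered differently in the lines. TYR (ENSG00000077498.9, chromosome 11, 89177875 to 89295759) had 119, 121 and 118 CPM in 92.1 VE-822, 112, 114 and 110.3 in 92.1 DMSO, 791, 793 and 762 in MP38 VE-822 and 814, 787 and 897 in MP38 DMSO. It was 7.44-fold lower in 92.1 than in MP38 in DMSO (log2 -2.90 ± 0.05), with no overlap. VE-822 gave no called change of TYR in MP38 (-0.10 ± 0.05, adjusted p = 0.0743) or in 92.1 (0.06 ± 0.04, adjusted p = 0.298), and in MP38 the groups overlapped. With scaling by library size alone it was called lower in MP38 (-0.14, adjusted p = 0.0104) and higher in 92.1 (0.13, adjusted p = 0.032). The difference between the responses was called at 0.19 ± 0.07 (adjusted p = 0.0375). That call was lost without 92.1 DMSO library 1 or 3 and without any single library of the other groups (adjusted p from 0.0587 to 0.325). The lowest value was 0.08, without MP38 DMSO library 3. DESeq2 (adjusted p = 0.187) and a replicate block (0.0664) did not call it either.

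TYRP1 (ENSG00000107165.13, chromosome 9, 12685439 to 12710285), which stabilises tyrosinase and acts late in the pathway, had the widest range of the 6 enzyme and matrix genes. It reached 12701, 12564 and 12282 CPM in 92.1 VE-822 and 11783, 11709 and 11664 in 92.1 DMSO, against 75.4, 72.2 and 78 in MP38 VE-822 and 25.4, 26.5 and 29.7 in MP38 DMSO. In DMSO the level was 431-fold higher in 92.1 (log2 8.75 ± 0.07, adjusted p = 1.4e-20). It rose 2.75-fold in VE-822 in MP38 (log2 fold change 1.46 ± 0.05, adjusted p = 4.97e-15), where the highest DMSO library stayed below the lowest VE-822 library. In 92.1 the change was 0.06 ± 0.05 and was not called (adjusted p = 0.409), although the groups did not overlap. Scaling by library size alone called it higher in 92.1 (0.13, adjusted p = 0.04). So did a test of genes averaging 5 CPM or more (0.15, adjusted p = 0.0179). The responses differed by -1.37 ± 0.07 (adjusted p = 3.52e-10).

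DCT (ENSG00000080166.16, chromosome 13, 94436811 to 94479682), or dopachrome tautomerase, was the pigment enzyme that fell in both lines. It measured 4.03, 4.31 and 5.21 CPM in 92.1 VE-822, 13.4, 13 and 12.8 in 92.1 DMSO, 442, 427 and 393 in MP38 VE-822 and 576, 577 and 641 in MP38 DMSO. In VE-822 it fell 2.98-fold in 92.1 (log2 fold change -1.57 ± 0.10, adjusted p = 8.41e-06) and 1.43-fold in MP38 (log2 fold change -0.52 ± 0.05, adjusted p = 1.45e-08), with no overlap in either. In 92.1 the fall was at a level 45.7-fold below that of MP38, resting on 517, 555 and 573 counts in VE-822 and 1400, 1445 and 1479 in DMSO. The responses of DCT differed by -1.03 ± 0.11 (adjusted p = 1.37e-06), a call that was lost on the log2(FPKM + 1) scale (-0.19, adjusted p = 0.105), which compresses low values.

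Per unit of length, in the deposited FPKM, TYRP1 stood 72.6 ± 1.03 times above TYR in 92.1 VE-822 and 72.7 ± 1.02 times above it in 92.1 DMSO (SD, n = 3). In MP38 the order was turned: TYR stood 15 ± 0.884 times above TYRP1 in VE-822 and 44.2 ± 1.73 times above it in DMSO. The ratio of TYR to DCT was 77.9 ± 10.6 in 92.1 VE-822, 24.9 ± 0.598 in 92.1 DMSO, 5.41 ± 0.216 in MP38 VE-822 and 4.05 ± 0.0744 in MP38 DMSO. In 92.1 DMSO the order of levels was TYRP1 (2913 FPKM), PMEL (1713), RAB38 (267), GPNMB (202), MLANA (122) and SOX10 (93.4), and no neighbours among these overlapped. In MP38 DMSO it was PMEL (542 FPKM), TYR (347), SOX10 (158), then S100B (85.9) and DCT (85.6), which overlapped, and GPNMB (63.1).

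PMEL (ENSG00000185664.15, chromosome 12, 55954105 to 55973317), the fibril protein, had 7411, 7472 and 7460.4 CPM in 92.1 VE-822, 6663, 6762 and 6887 in 92.1 DMSO, 2874, 2872 and 2900.5 in MP38 VE-822 and 1863, 1861 and 1807 in MP38 DMSO. It alone held 0.297 to 0.304% of all counts in MP38 VE-822 and 0.195 to 0.202% in MP38 DMSO. The rise in MP38 was 0.64 ± 0.04 (adjusted p = 3.3e-11). In 92.1 the groups did not overlap either, but the change of 0.10 ± 0.05 was not called (adjusted p = 0.144). It was called without DMSO library 3, at 0.08 (adjusted p = 0.0276). Scaling by library size alone called it as well (0.17, adjusted p = 0.0155). So did a test of genes averaging 5 CPM or more (0.19, adjusted p = 0.0121) and limma on filtered log2(FPKM + 1) (0.17, adjusted p = 0.0485). The responses differed by -0.51 ± 0.05 (adjusted p = 3.04e-07). MLANA, a melanosome membrane protein needed for PMEL processing, had 480.1, 467 and 469 CPM in 92.1 VE-822, 386, 378 and 418 in 92.1 DMSO, 359, 361 and 355 in MP38 VE-822 and 142, 136 and 157 in MP38 DMSO. It rose 2.46-fold in MP38 (log2 fold change 1.30 ± 0.05, adjusted p = 4.97e-15) and by 0.22 ± 0.05 (adjusted p = 0.0107) in 92.1, and its response differed between the lines by -1.05 ± 0.08 (adjusted p = 2.56e-08). In 92.1 its call was lost without VE-822 library 1 (adjusted p = 0.0506) or without DMSO library 1 or 2 (0.0517 for each). GPNMB, a relative of PMEL, rose in both lines, by 0.47 ± 0.04 in MP38 and 0.34 ± 0.06 in 92.1, and the difference was not called.

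Of the channels and transporters, TRPM1, a cation channel whose gene is a known target of MITF, changed most. TRPM1 had 86.3, 88 and 94.5 CPM in 92.1 VE-822, 81.1, 80.7 and 66.9 in 92.1 DMSO, 22.8, 20.8 and 20.3 in MP38 VE-822 and 3.71, 4.03 and 4.11 in MP38 DMSO. The MP38 VE-822 libraries all stood far above the DMSO ones, 5.35-fold on average (log2 fold change 2.42 ± 0.07, adjusted p = 3.62e-16). In 92.1 the change of 0.19 ± 0.08 was not called, and it was 0.08 without DMSO library 3, which was the lowest. The responses differed by -2.20 ± 0.11 (adjusted p = 3.09e-10), the largest difference among the 37 genes tested. SLC45A2, a transporter that affects melanosome pH, had 83.4, 80.5 and 85.1 CPM in 92.1 VE-822, 87.4, 86.6 and 76.8 in 92.1 DMSO, 126, 122 and 112 in MP38 VE-822 and 65.9, 66.9 and 64.3 in MP38 DMSO. It rose in MP38 (log2 fold change 0.86 ± 0.04, adjusted p = 8.79e-13), where its VE-822 libraries lay above all 92.1 libraries, and was not called in 92.1 (-0.05 ± 0.06) unless DMSO library 3 was left out (-0.13, adjusted p = 0.00245).

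OCA2, a melanosome anion channel, was near the detection limit in MP38. It had 23.3, 23.9 and 24.9 CPM in 92.1 VE-822 and 20.1, 18.4 and 19.3 in 92.1 DMSO, while MP38 gave 5, 11 and 12 counts in VE-822 and 4, 3 and 1 in DMSO. It was not tested in MP38 alone, rose by 0.28 ± 0.06 in 92.1 (adjusted p = 0.00705), and its log2 difference between lines, 8.88 ± 0.17, rests on 8 counts over the 3 MP38 DMSO libraries. The difference between responses, -1.60 ± 0.44 (adjusted p = 0.0083), rests on the same few counts: it was lost without MP38 DMSO library 3 (-1.26, adjusted p = 0.0613) and was -0.04 (adjusted p = 0.841) with log2(FPKM + 0.1). With log2(FPKM + 1) in limma it turned to 0.25 and was called in that opposite direction (adjusted p = 0.00598). SLC24A5, a cation exchanger, showed a like gap, with 17.8, 16.9 and 18.6 CPM in 92.1 VE-822, 16.1, 14 and 19.8 in 92.1 DMSO, 0.347, 0.343 and 0.149 in MP38 VE-822 and 0.208, 0.226 and 0.292 in MP38 DMSO. The gap was 68.4-fold in DMSO, no response was called in either line unless 92.1 DMSO library 3 was left out (0.18 in 92.1, adjusted p = 0.022), and 32.9% of its exonic bases lie opposite those of MYEF2. GPR143, a receptor of the melanosome membrane, rose by 0.40 ± 0.04 in MP38, and ATP7A, the copper transporter that supplies tyrosinase, fell by 0.31 there. All 6 genes of this group were higher in 92.1 than in MP38 in DMSO, although SLC45A2 was not called with scaling by library size alone.

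The transport genes moved together in MP38: all 5 rose, by 0.44 to 0.98 on the log2 scale, with a median of 0.56. RAB27A, the GTPase that links melanosomes to the motor complex, had 21.4, 20.6 and 20.5 CPM in 92.1 VE-822, 24, 24.4 and 22.7 in 92.1 DMSO, 99.5, 100 and 93.7 in MP38 VE-822 and 49.3, 49.5 and 49.3 in MP38 DMSO. It rose 1.97-fold in MP38 (log2 fold change 0.98 ± 0.04, adjusted p = 2.37e-14) and was lower in 92.1 VE-822 (log2 fold change -0.22 ± 0.06, adjusted p = 0.0131), a call that was lost with scaling by library size alone (-0.15, adjusted p = 0.0528). The responses differed by -1.17 ± 0.07 (adjusted p = 1.15e-09). RAB38, a GTPase that routes pigment enzymes to melanosomes, had 405, 399 and 389 CPM in 92.1 VE-822, 400.4, 407 and 429 in 92.1 DMSO, 105, 108 and 104 in MP38 VE-822 and 57.7, 57.4 and 60.4 in MP38 DMSO. Its rise in MP38 was 0.84 ± 0.04 (adjusted p = 1.92e-13), and in DMSO it was 7.04-fold higher in 92.1. In 92.1 the RAB38 groups overlapped, and the change was -0.09 ± 0.05.

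MYO5A, the myosin motor, had 307, 312 and 302 CPM in 92.1 VE-822, 286, 286 and 265 in 92.1 DMSO, 386, 376 and 359.8 in MP38 VE-822 and 254, 253 and 251 in MP38 DMSO. MREG, which acts in melanosome movement and transfer, had 24.8, 25.8 and 24.4 CPM in 92.1 VE-822, 24.9, 24.8 and 20.2 in 92.1 DMSO, 28.6, 30.5 and 27.1 in MP38 VE-822 and 19.4, 19.3 and 21.6 in MP38 DMSO. In MP38 they rose by 0.56 ± 0.04 and 0.50 ± 0.05, with no overlap. MLPH, the adaptor between RAB27A and the myosin, was the 1 transport gene called higher in both lines, by 0.44 ± 0.05 in MP38 and 0.23 ± 0.06 in 92.1. Between the DMSO lines MLPH, MYO5A and MREG were called higher in 92.1 by 0.14 to 0.26, but none of them was called with scaling by library size alone, where MYO5A and MREG were below 0.

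**Figure D3:**
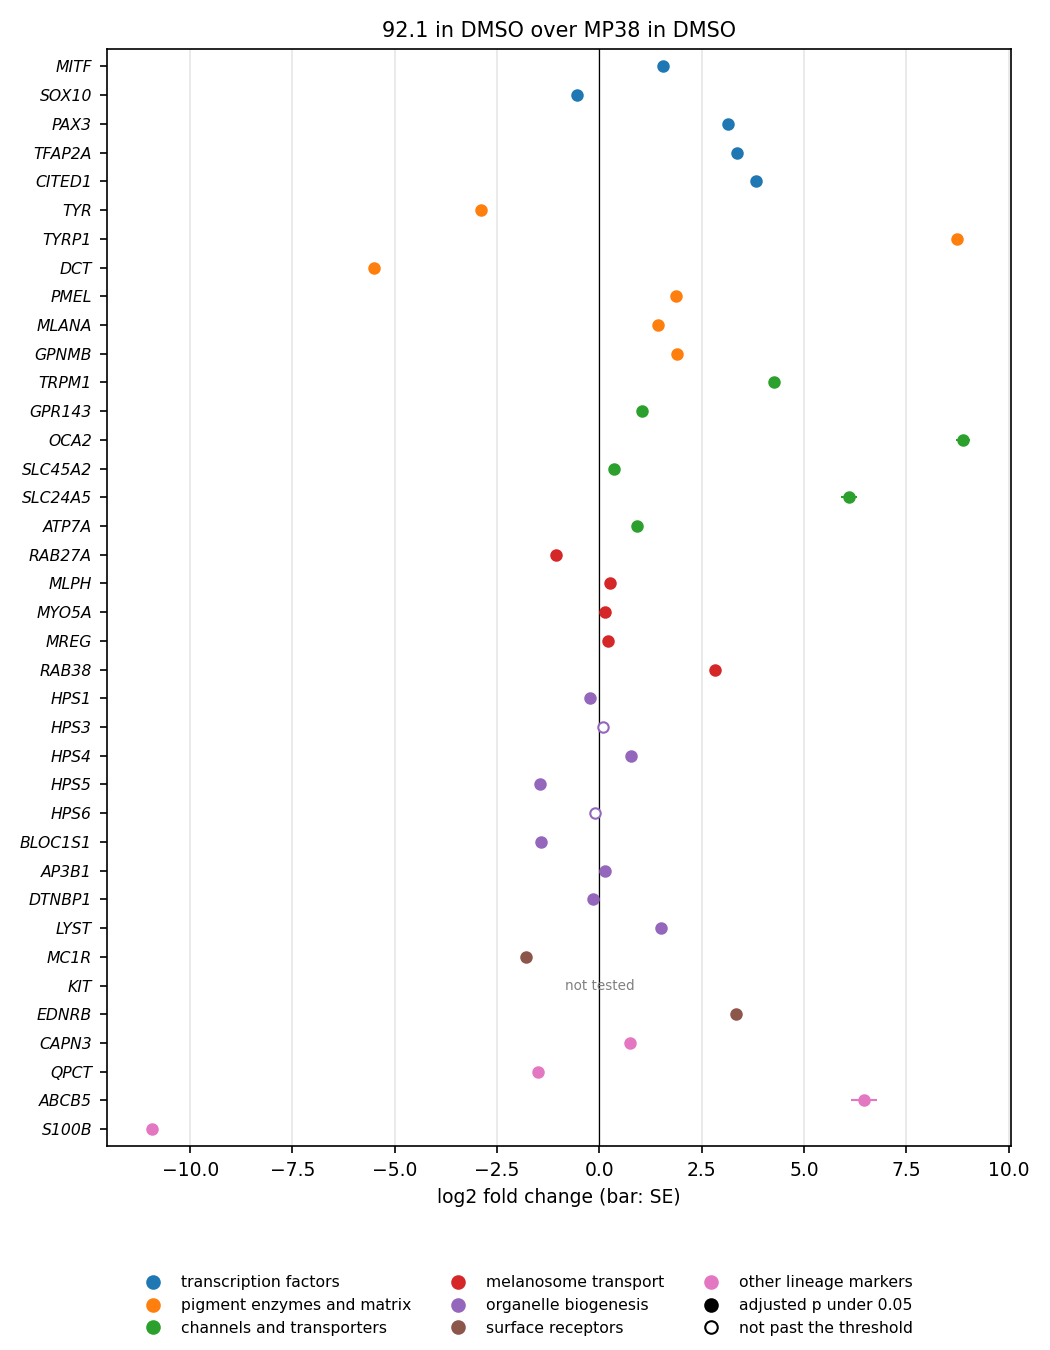
Log2 fold change of 92.1 DMSO over MP38 DMSO for each gene, coloured by role, with SE bars; open points did not pass an adjusted p of 0.05. Values run from -10.92 for S100B to 8.88 for OCA2, and the medians by role are 0.21 for transport and -0.12 for biogenesis genes, 1.66 for enzyme and matrix genes, 2.66 for channels and transporters and 3.15 for transcription regulators, with overlap between the roles.

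The genes placed here under organelle biogenesis had small changes in both lines. Their 9 log2 fold changes in VE-822 ran from -0.29 to 0.38 in MP38, where 3 rose and 3 fell, and from -0.28 to 0.24 in 92.1, where 1 rose and 4 fell. None reached 0.5 in either line, against 20.5% of all genes called at that size in MP38 and 21.6% in 92.1. HPS3, a subunit of the complex BLOC-2, had 38, 37.8 and 36.4 CPM in 92.1 VE-822, 43.2, 43.6 and 38.2 in 92.1 DMSO, 51.8, 52.9 and 49.8 in MP38 VE-822 and 39.1, 39.9 and 39 in MP38 DMSO. HPS4, a subunit of BLOC-3, had 235, 231 and 224 CPM in 92.1 VE-822, 246, 246 and 278 in 92.1 DMSO, 201, 196 and 188 in MP38 VE-822 and 147, 152 and 152 in MP38 DMSO. Both rose in MP38 and fell in 92.1, with differences of -0.55 ± 0.08 and -0.53 ± 0.07 between the responses, and their falls in 92.1 were not called with scaling by library size alone.

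HPS5, another subunit of BLOC-2, did the reverse, with 64.2, 65 and 65.6 CPM in 92.1 VE-822, 56.4, 53.3 and 50.8 in 92.1 DMSO, 125, 119.8 and 116 in MP38 VE-822 and 140.4, 142 and 155 in MP38 DMSO. It fell in MP38 (log2 fold change -0.29 ± 0.04, adjusted p = 8.92e-06) and rose in 92.1 (log2 fold change 0.24 ± 0.05, adjusted p = 0.00667), so that subunits of 1 complex moved in different directions. BLOC1S1, a subunit of BLOC-1, had 2.44, 2.89 and 2.42 CPM in 92.1 VE-822, 3.21, 2.82 and 3.14 in 92.1 DMSO, 10.1, 10.6 and 11 in MP38 VE-822 and 8.21, 8.53 and 7.89 in MP38 DMSO. It rose in MP38 (log2 fold change 0.36 ± 0.07, adjusted p = 0.000147) and the responses differed by -0.61 ± 0.13 (adjusted p = 0.00116). BLOC1S1 shares 29.8% of its exonic bases with a readthrough gene and HPS3 shares 22.7% with CP on the other strand, so these 2 are uncertain. Between the DMSO lines 3 biogenesis genes were higher in 92.1, led by LYST, the lysosomal trafficking regulator (1.5 ± 0.05), and 4 lower, led by HPS5 (-1.45 ± 0.05) and BLOC1S1 (-1.43 ± 0.09). These 7 of 9 lie near the share of all genes called between the lines, 79.7% (38.5% higher, 41.2% lower).

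The surface receptors MC1R and EDNRB differed between the lines in opposite directions. MC1R, the melanocortin receptor, had 16.1, 17.3 and 15.9 CPM in 92.1 VE-822, 9.99, 10.3 and 10.6 in 92.1 DMSO, 31.9, 32.4 and 31.7 in MP38 VE-822 and 37, 35.7 and 34.3 in MP38 DMSO. It rose 1.55-fold in 92.1 (log2 fold change 0.64 ± 0.07, adjusted p = 0.00012) and fell in MP38 (log2 fold change -0.17 ± 0.04, adjusted p = 0.00296), with no overlap in either line, and the responses differed by 0.83 ± 0.08 (adjusted p = 3.59e-07). Its exons share 21.4% of their bases with AC092143.1 on the same strand and 16.2% with an antisense RNA, so its values are uncertain. EDNRB, the endothelin receptor of the lineage, had 173, 166 and 207 CPM in 92.1 VE-822, 201, 196 and 208 in 92.1 DMSO, 12, 12.7 and 10.9 in MP38 VE-822 and 19.3, 20.3 and 20.4 in MP38 DMSO. It fell 1.7-fold in MP38 (log2 fold change -0.76 ± 0.06, adjusted p = 1.21e-09) and was 10.1-fold higher in 92.1 in DMSO, while in 92.1 the groups overlapped and no change was called (-0.19 ± 0.08) unless DMSO library 3 was left out (-0.19, adjusted p = 0.0188). KIT, the receptor of stem cell factor, was too low to test, with 14, 8 and 14 counts in 92.1 VE-822, 5, 7 and 3 in 92.1 DMSO, 5, 6 and 1 in MP38 VE-822 and 2, 8 and 3 in MP38 DMSO.

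S100B, a calcium-binding protein used as a melanoma marker, separated the lines more than any other gene of the set. MP38 had 113, 116 and 129 CPM in VE-822 and 143, 137.6 and 149.9 in DMSO, whereas the 92.1 libraries held 29, 21 and 27 counts in VE-822 and 8, 7 and 9 in DMSO. In DMSO it was 1941-fold lower in 92.1 (log2 -10.92 ± 0.11). Its rise in 92.1 (log2 fold change 1.49 ± 0.32, adjusted p = 0.00626) rests on a mean of 25.7 counts per library in VE-822 against 8 in DMSO, and in MP38 it fell (log2 fold change -0.28 ± 0.05, adjusted p = 4.12e-05). ABCB5, a membrane transporter found in melanoma, had 19.7, 18.7 and 23.9 CPM in 92.1 VE-822, 11.5, 12 and 21.5 in 92.1 DMSO, 0.99, 0.936 and 0.846 in MP38 VE-822 and 0.237, 0.166 and 0.102 in MP38 DMSO. The MP38 rise (log2 fold change 2.43 ± 0.30, adjusted p = 7.1e-07) rests on 57, 60 and 51 counts in VE-822 and 16, 11 and 7 in DMSO. In 92.1 the groups overlapped through DMSO library 3 and the change of 0.43 ± 0.23 was not called (adjusted p = 0.169), but it was 0.75 without that library (adjusted p = 4.3e-07). The responses differed by -1.98 ± 0.50 (adjusted p = 0.00501), a value that was not called with log2(FPKM + 0.1) (-0.28, adjusted p = 0.483) and turned to 0.23 with log2(FPKM + 1). QPCT, glutaminyl-peptide cyclotransferase, had 27.1, 28.8 and 32.8 CPM in 92.1 VE-822, 22.8, 23.5 and 27.5 in 92.1 DMSO, 131, 133 and 129 in MP38 VE-822 and 71.3, 69.7 and 65.7 in MP38 DMSO, and rose 1.89-fold in MP38 (log2 fold change 0.92 ± 0.04, adjusted p = 8.28e-14). In 92.1 the QPCT change of 0.23 ± 0.10 was not called, and it was called without DMSO library 3 (0.29, adjusted p = 0.00102). CAPN3, a calpain that shares 57.1% of its exonic bases with another gene, was called between the lines (0.74 ± 0.07) and, with all libraries, in no other comparison.

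**Figure D4:**
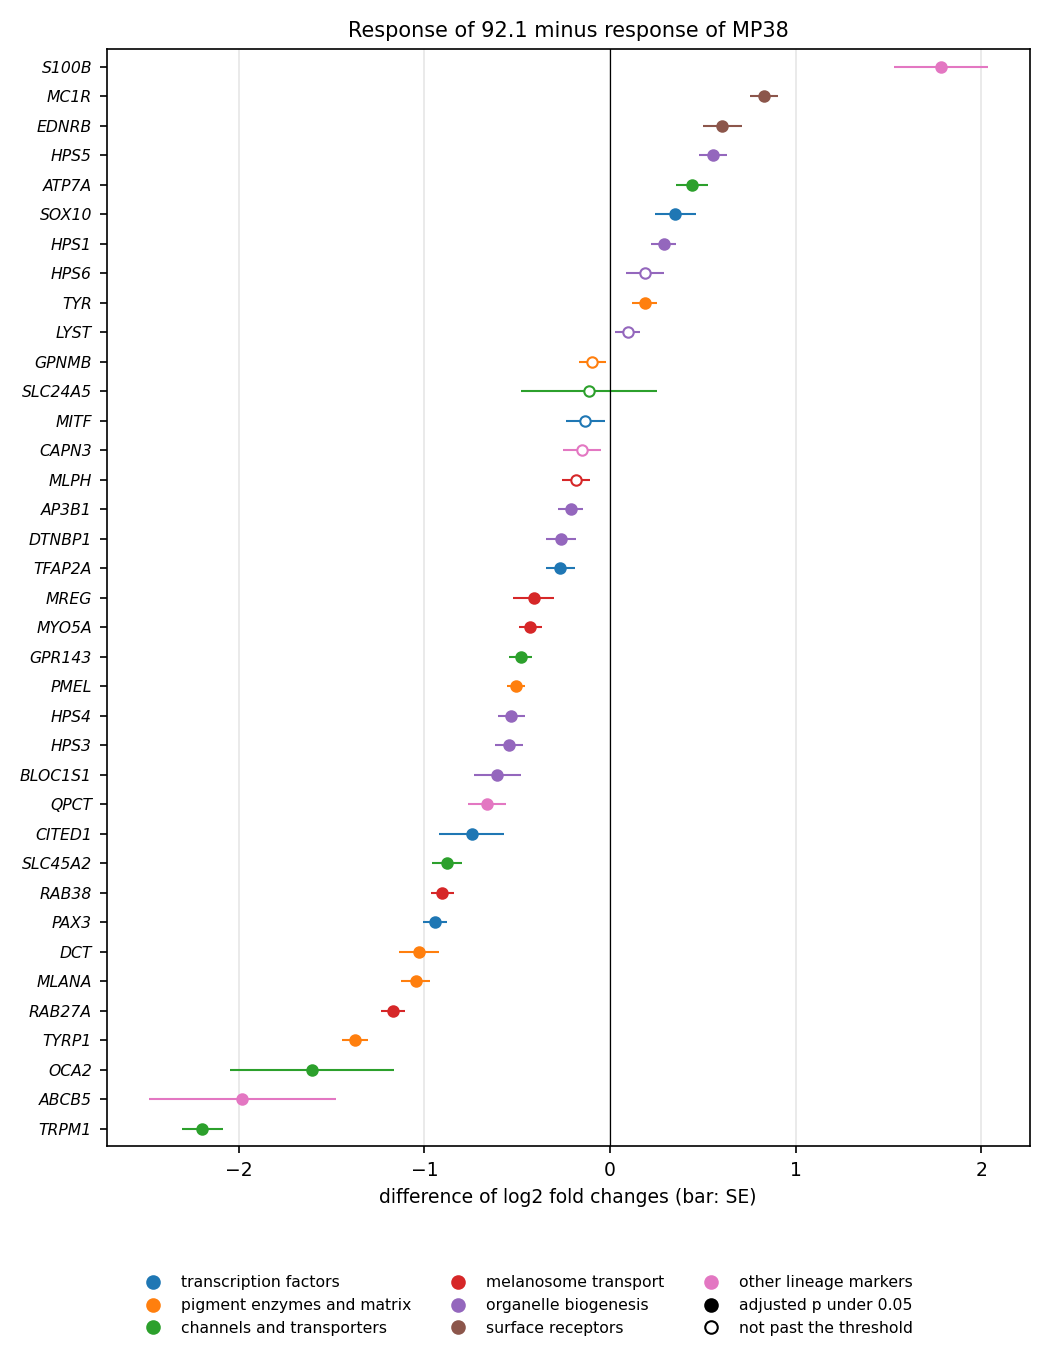
Response of 92.1 minus response of MP38 for the 37 genes tested, as a difference of log2 fold changes with SE bars, ordered by size and coloured by role. Points left of 0 had the lower response in 92.1; they run from -2.20 for TRPM1 to 1.78 for S100B, and the bars are wide for OCA2 and ABCB5, which have few counts in MP38.

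By role, the median difference between responses was -0.77 for pigment enzymes and matrix genes, -0.68 for channels and transporters, -0.43 for transport genes, -0.27 for transcription regulators and -0.21 for biogenesis genes. Called differences below 0 numbered 4 of 6, 4 of 6, 4 of 5, 3 of 5 and 5 of 9 in that order, where 18.8% of all genes were called below 0. In MP38 the median response was 0.55, 0.40, 0.56, 0.43 and 0.03 in the same order, and in 92.1 it was 0.08, 0.08, 0.07, -0.14 and -0.19. The 2 surface receptors tested were the only role in which every called difference lay above 0.

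A further 69 genes of the same pathways, none among the 38, were read from the same fits. In MP38, 30 of 63 tested rose and 10 fell, and in 92.1 20 of 64 rose and 15 fell. Of all genes, 26.9% were called higher and 25.4% lower in MP38, and 20.3% and 19.6% in 92.1. Between the DMSO lines 33 of 66 were higher in 92.1 and 22 lower, and the responses differed for 35 of 66, 23 of them below 0, where 79.7% of all genes were called between the lines and 18.8% had a difference called below 0. The list nearest to the pigment genes, 10 targets of MITF outside pigmentation, had 8 higher and 1 lower of 10 in MP38, 2 higher and 4 lower of 9 in 92.1, and 7 differences below 0 of 10. BCL2A1, an anti-apoptotic relative of BCL2 regulated by MITF, had 148, 153 and 150.4 CPM in MP38 VE-822 and 61.1, 58.6 and 55.2 in MP38 DMSO, against at most 0.0233 in any 92.1 library. It rose by 1.36 ± 0.04 (adjusted p = 5.67e-16) in MP38. In DMSO, BCL2 (2.99 ± 0.09) and CDK2 (2.31 ± 0.04) were higher in 92.1, and ACP5, an acid phosphatase, lower (-2.24 ± 0.11). CDK2 overlaps PMEL by 2.28% of the PMEL exonic bases on the other strand.

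Among 19 lineage factors and ligands, 5 of 15 tested rose and 6 fell in MP38, 6 of 17 rose and 4 fell in 92.1, and 5 of 17 were higher and 10 lower in 92.1 than in MP38 in DMSO. Of all genes, 52.3% were called in MP38, 39.9% in 92.1 and 79.7% between the lines. IRF4, which acts with MITF on TYR, had 0.99, 0.978 and 1.04 CPM in 92.1 VE-822, 1.57, 1.21 and 0.834 in 92.1 DMSO, 109, 112 and 109 in MP38 VE-822 and 102, 105 and 116 in MP38 DMSO. SOX9 had 10, 9.47 and 10.8 CPM in 92.1 VE-822, 7.92, 7.76 and 6.88 in 92.1 DMSO, 0.104, 0.0312 and 0.116 in MP38 VE-822 and 0.0593, 0.0754 and 0.0584 in MP38 DMSO. SNAI2, a neural crest factor, was also higher in 92.1 DMSO (3.00 ± 0.07), and LEF1, a Wnt effector, lower (-3.67 ± 0.06).

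Of 26 further biogenesis genes, 8 of 25 rose and 3 fell in MP38, 4 of 25 rose and 5 fell in 92.1, and 15 were higher and 5 lower in 92.1 than in MP38 in DMSO. Of all genes, 26.9% were called higher and 25.4% lower in MP38, and 20.3% and 19.6% in 92.1. The shares in 92.1 lie near these. Between the lines 79.7% of all genes were called, 38.5% higher and 41.2% lower. The further biogenesis genes were called at a like share there, but more often higher in 92.1 than lower. RAB32, of this list, works beside RAB38, which was placed with the transport genes. RAB32 rose 2.27-fold in MP38 (log2 fold change 1.18 ± 0.05, adjusted p = 3.82e-14) and by 0.23 ± 0.04 in 92.1. In DMSO RAB32 was higher in 92.1 (1.60 ± 0.05), as were KIF13A (2.04 ± 0.07) and PIKFYVE (1.52 ± 0.05). VPS11 was lower (-1.63 ± 0.05). Of 5 ion and pH genes, 3 of 4 tested rose in MP38 and 3 of 5 rose with 1 falling in 92.1, and TPCN2 (1.91 ± 0.06) and CLCN7 (1.33 ± 0.05) were higher in 92.1 DMSO. Of 9 other transport genes, 6 of 9 rose and none fell in MP38, and 5 of 8 rose and 1 fell in 92.1. SYTL2, a RAB27A effector, rose in 92.1 (log2 fold change 1.21 ± 0.08, adjusted p = 8.84e-06). The mean of SYTL2 in MP38 was also higher in VE-822, at 5.98 CPM against 3.93 in DMSO. RAB17 was higher in 92.1 DMSO (1.15 ± 0.11). EXPH5, also a RAB27A effector, had a difference between responses of -1.07 ± 0.26 (adjusted p = 0.00351). Its mean levels were low, at 1.80 CPM in 92.1 VE-822, 2.35 in 92.1 DMSO, 2.29 in MP38 VE-822 and 1.43 in MP38 DMSO.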

How the data were processed

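The authors deposited 1 table of unnormalized counts and 1 table of FPKM for either line. Per the submitters' processing notes, the tools were STAR 2.7.11a, featureCounts 2.0.6, cutadapt 4.8, MultiQC 1.7 and FastQC 0.12.1, and the build was GRCh38.p13. The strand setting and other parameters are not given in the sources used here. The deposited FPKM were checked to be the counts over feature length and library total, and served for comparing levels between genes. Each line was fitted alone for VE-822 against DMSO in edgeR 4.0.16 (R 4.3.3): filterByExpr with a minimum count of 10 and minimum total of 15, TMM factors, quasi-likelihood F test, Benjamini-Hochberg adjustment over all genes tested, and a call at an adjusted p under 0.05. The line comparison and the difference between responses came from 1 fit of all 12 libraries over features in both tables. SE was taken from the F statistic. CPM use TMM factors over all 12 libraries, so a ratio of CPM can differ slightly from the fitted fold change. The fits were tested on simulated data. DESeq2 1.42.0, limma 3.58.1 on log2(FPKM + 1) and log2(FPKM + 0.1), other filters and scalings, a replicate block and leaving out each library were alternatives.

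Given with the value of each library were MITF, SOX10, PAX3, TFAP2A, TYR, TYRP1, DCT, PMEL and MLANA, every member called with a log2 change of at least 0.5 in a VE-822 comparison or in the difference, and the 6 highest and 6 lowest between the lines. Other pathway genes were named at a called log2 change of at least 1 and a mean of at least 1 CPM, at most 4 per list and comparison. Members and lists were chosen with earlier results of these data known. Exon overlaps were computed on GENCODE 29; 18 of the 38 genes share exonic bases with another gene. No library was left out of the values reported unless stated. Some marker lists are not reported here.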

Additional observations from a re-analysis of the deposited data

Results flagged for a closer look

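For 30 of the 37 genes tested, the response to VE-822 differed between 92.1 and MP38 by the test of the difference itself, at an adjusted p under 0.05 in edgeR (40.9% of all genes did). Values are the log2 response of 92.1 minus that of MP38. Lower responses in 92.1 were found for the channels and transporters TRPM1 (-2.20), OCA2 (-1.60), SLC45A2 (-0.88) and GPR143 (-0.48), and for the enzyme and matrix genes TYRP1 (-1.37), MLANA (-1.05), DCT (-1.03) and PMEL (-0.51). They were also found for the transport genes RAB27A (-1.17), RAB38 (-0.90), MYO5A (-0.43) and MREG (-0.41), and for the transcription regulators PAX3 (-0.94), CITED1 (-0.75) and TFAP2A (-0.27). Among biogenesis genes and other markers they were found for BLOC1S1 (-0.61), HPS3 (-0.55), HPS4 (-0.53), DTNBP1 (-0.27), AP3B1 (-0.21), ABCB5 (-1.98) and QPCT (-0.66). Higher responses in 92.1 were found for S100B (1.78), MC1R (0.83), EDNRB (0.61), HPS5 (0.56), ATP7A (0.44), SOX10 (0.35), HPS1 (0.29) and TYR (0.19). The values of OCA2 and ABCB5 rest on few counts in MP38, and that of S100B on few counts in 92.1. The calls of TYR and SOX10 were lost when any of several single libraries was left out. That of TFAP2A was lost under several other settings.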

How the results depend on the processing

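In MP38 and between the DMSO lines the counts of members called stayed within 1.5 times under every alternative run; without 1 library they were 20 to 21 higher and 10 to 11 lower in MP38, and 23 to 25 and 10 to 12 between lines. In 92.1, members called higher (7) were 16 with library size only, 15 among genes averaging 5 CPM or more and 11 with log2(FPKM + 1), with or without a filter. Members called lower (8) there were 5, 5, 5 (2 with no filter) and, with log2(FPKM + 0.1), 5. Without 1 library the 92.1 counts were 5 to 13 higher and 3 to 16 lower, and over all genes 3399 to 6377 and 3343 to 6899. Keeping genes that averaged 5 CPM or more left fewer to test, and the all-gene counts were 2917 higher and 2805 lower in 92.1 and 5212 and 5122 between lines; lower calls in 92.1 were 2757 with unfiltered FPKM. The difference counts without 1 library were 6 to 9 above 0 and 22 to 23 below. SOX10 in 92.1 was -0.091 without DMSO library 3, and at most 0.12 when another library was left out. In the difference, OCA2 was 0.25 and ABCB5 0.23 on log2(FPKM + 1), with and without a filter. The reversed value was called for OCA2 (adjusted p = 0.00598 and 0.0094 in limma) but not for ABCB5. For these the cause was not tested. All settings left 17 of 19 named members on their side of the threshold in MP38 and 4 of 11 in 92.1. They left 28 of 28 between lines and 17 of 24 in the difference. Named members here are the genes always given, from MITF to MLANA, and those called at a log2 change of at least 0.5. Among all members, scaling by library size alone lost 5 of the calls between lines and gained 2.

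Deviations of same-numbered libraries correlated at 0.0925 to 0.118 in 92.1, where every library correlated best with its own number, and at -0.162 to -0.0356 in MP38. The pairs were not all above 0.1, and no label ties the numbers to a shared source, so the libraries were not treated as paired. With the replicate block, members called were 20 higher and 10 lower in MP38, 9 and 10 in 92.1, 24 and 11 between lines, and 7 and 22 in the difference. The 3 libraries per group, the unstated strand setting and low counts of KIT, OCA2, ABCB5 and S100B limit precision; exact counts below about 10 per library carry large counting error.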
